A study of Homo sapiens with 6 samples.

Results

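The genes described here are the transcription factor NRF2 and its regulators, the glutathione and thioredoxin systems, the enzymes that remove peroxides and superoxide, and the enzymes that supply NADPH. The 53 gene names were grouped by function, with earlier results of these data known. They match 54 of the 58735 rows of the deposited expression table, because SOD2 has 2 rows, and 46 of them reached a mean of at least 1 FPKM and were tested among 13796 genes. FPKM is the number of reads on a gene scaled by its length and by the size of the library. HCT116SCs, a CD44+ CD326+ fraction of the human colorectal cancer line HCT116, were kept as tumor spheres in serum-free DMEM/F12 medium with B27, 20 ng/mL EGF and 20 ng/mL bFGF. The spheres were dissociated, transfected by liposomes with negative control siRNA (NC, genotype labelled WT, n = 3 libraries) or with PSCA siRNA (siPSCA, genotype labelled PSCA knockdown, n = 3 libraries), and harvested after 48 h. The comparison asks which transcripts differ after siPSCA. All libraries come from 1 cell line, no label says that the replicates were separate cultures, and p-values then measure only the spread between these libraries. The titles of siPSCA 2 and siPSCA 3 carry HCT117 and HCT118, while every other label of these libraries says HCT116.

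NRF2, encoded by NFE2L2, is held at a low level by KEAP1, which passes it to a ubiquitin ligase. Oxidants and electrophiles act on KEAP1, NRF2 then accumulates, pairs with a small MAF protein and binds antioxidant response elements, a place that BACH1 can also occupy as a repressor. Its targets make and recycle glutathione and thioredoxin, reduce quinones and peroxides, and feed both systems with NADPH, which comes in large part from the pentose phosphate pathway. Because NRF2 is controlled largely at the level of the protein, its transcript is not a measure of its activity.

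The core letters of the antioxidant response element, TGACNNNGC, were searched on both strands in the 250 bases before each RefSeq start site of GRCh38.p14. Of the 53 names, 45 were matched to a promoter, and 10 of these genes (22.2%) held the core, against 13.2% of all genes with a promoter in the table and 16.0% of the tested ones. The sites of KEAP1, GCLM, TXNRD1, GSTP1 and ME1 are shown because their transcripts are described below and moved in different directions. Capitals mark the core, each site is written 5′ to 3′ on the strand that holds it, and the core letters can contain the AP-1 motif TGACTCA, as they do in GSTP1 and ME1.
KEAP1, chr19:10502807-10502835, minus strand, 54 bases before the start site: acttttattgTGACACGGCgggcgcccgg
KEAP1, chr19:10502784-10502812, plus strand, 31 bases before the start site: caggtcaccaTGACTAAGCagagccgggc
GCLM, chr1:93909446-93909474, plus strand, 34 bases before the start site: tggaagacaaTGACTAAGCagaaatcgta
TXNRD1, chr12:104215670-104215698, plus strand, 99 bases before one start site: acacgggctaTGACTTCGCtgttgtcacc
TXNRD1, chr12:104286920-104286948, minus strand, 102 bases before another start site: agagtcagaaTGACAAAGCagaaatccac
GSTP1, chr11:67583736-67583764, plus strand, 66 bases before the start site: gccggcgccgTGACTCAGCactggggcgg
ME1, chr6:83431170-83431198, minus strand, 137 bases before the start site: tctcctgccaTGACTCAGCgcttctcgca
The core was also found at GPX2, GSTO1, IDH1, PGD and RPE. A match describes letters in this window and shows no binding.

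Reads on genes numbered 16099716 to 17302219 per library, so the depth was similar in all 6. PSCA itself had 4, 12 and 15 reads in NC and 9, 9 and 7 in siPSCA, so its knockdown could not be seen at this depth (log2 fold change -0.07, limma adjusted p = 0.728). NC 3 lay apart from NC 1 and NC 2 in a direction that followed the GC content of the genes. Across genes, which are not independent, the log2 fold change of siPSCA over NC rose with GC content (Spearman rho 0.675, and 0.612 without NC 3). For that reason the results are set beside a fit from which each library's smooth trend with GC content and gene length was taken out. Of 8 markers of colorectal epithelium and of the sort, EPCAM (CD326), CD44, KRT8, KRT18 and CDH1 exceeded 1 FPKM in every library. CD44 (79.2 to 87.5 FPKM in NC, 59.6 to 62.4 in siPSCA) and CDH1 (28.0 to 32.1, 18.8 to 19.9) were lower and KRT8 (176 to 182, 202 to 213) higher in every siPSCA library, while the intestinal markers CDX1, VIL1 and LGALS4 were at or near 0. Of 8 markers of other cell types 7 stayed under 1 FPKM everywhere, with CD3E and CD68 at 0, and their summed level was 3.62 to 5.96 FPKM in NC and 6.28 to 6.84 in siPSCA, nearly all of it COL1A1. The part of these markers in the results was not tested. In bulk RNA, fewer cells with a transcript and less of it per cell cannot be told apart.

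Redox transcripts were mostly higher in siPSCA. Of the 46 tested genes 30 rose (26.6% of all tested genes did), 3 fell (24.2% of all did) and 13 did not pass an adjusted p of 0.05 in limma on log2(FPKM + 1). The genes that fell were NFE2L2, GCLC and TXNRD1. With an added log2 fold change over 0.5, 13 rose, against 14.1% of all tested genes, and TXNRD1 alone fell, against 9.71%. SRXN1 and AKR1C3, among these 13, had NC means under the minimum of 1 FPKM (0.935 and 0.660). They were tested only because their siPSCA levels were higher, so their place in these counts is no independent support for a rise. Both were also called without a minimum FPKM (limma adjusted p = 0.00983 and 0.0249). The median log2 fold change of the 46 genes was 0.34, and that of all tested genes was 0.01. The libraries of the groups did not overlap for 38 of the 46, beside 64.5% of all tested genes. With the GC and length trend removed, 28 of the 46 were higher (21.5% of all) and 6 lower (18.3% of all), with a median of 0.28. Both fits called 23 genes higher and the same 3 lower. Of all 13796 tested genes, 3744 were called in both fits, counted without regard to direction. For a single gene an exact permutation test of 3 libraries against 3 cannot give a p below 0.1, which every gene without overlap reached.

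**Figure D1:**
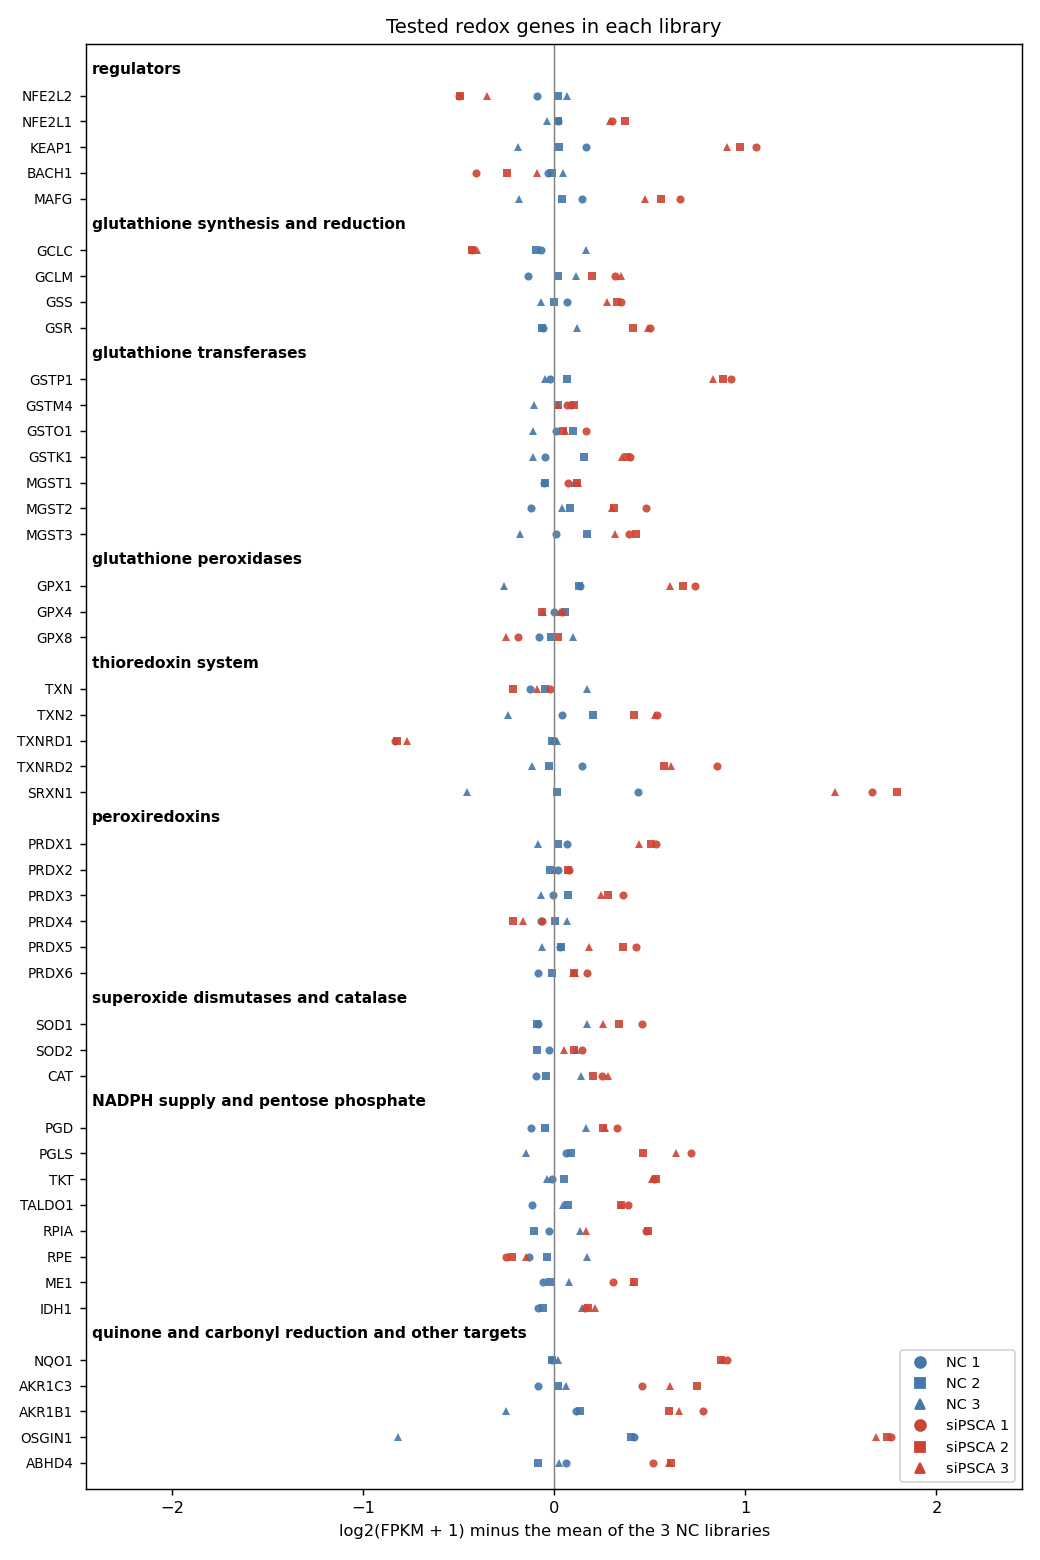
Each row is 1 of the 46 tested genes, grouped by role, and each symbol is 1 library, placed by its log2(FPKM + 1) minus the mean of the 3 NC libraries. The siPSCA symbols lie to the right of all NC symbols for most genes, and to the left for TXNRD1, GCLC, NFE2L2, BACH1 and RPE. NC 3 is the lowest NC library for 18 of the 30 genes that rose.

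Among the regulators, KEAP1, the adaptor that hands NRF2 to its ligase, and NFE2L2 moved in opposite directions. KEAP1 had 18.2, 16.5 and 14.0 FPKM in NC 1, NC 2 and NC 3 and 34.7, 32.7 and 31.0 FPKM in siPSCA 1, siPSCA 2 and siPSCA 3. Every siPSCA library exceeded every NC library, with means of 16.2 ± 2.12 and 32.8 ± 1.83 (SD, n = 3). The log2 fold change of KEAP1 was 0.98 ± 0.10 (SE, limma adjusted p = 0.00122), and it was 0.47 with the GC and length trend removed (adjusted p = 0.00127 in limma). NFE2L2 had 25.6, 27.7 and 28.7 FPKM in NC and 19.0, 19.1 and 21.2 in siPSCA. All siPSCA libraries lay below all NC libraries, by a log2 fold change of -0.45 ± 0.07 (limma adjusted p = 0.00342), or -0.26 with the trend removed. Of the exon bases of NFE2L2, 20.9% lie in other genes, mainly AC019080.1 on the same strand, whose reads the counting may have shared.

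MAFG, a small MAF partner of NRF2 and of BACH1, had 17.2, 15.9 and 13.5 FPKM in NC and 25.0, 23.3 and 21.9 in siPSCA. It rose without overlap, with a log2 fold change of 0.56 ± 0.10 (limma adjusted p = 0.00526) and of 0.24 with the trend removed. NFE2L1, which encodes NRF1 and is best known for the control of proteasome genes, had 37.7, 37.8 and 36.2 FPKM in NC and 46.1, 48.4 and 45.7 in siPSCA. Its groups did not overlap and it was called (log2 fold change 0.32, limma adjusted p = 0.00312), but the value was 0.09 with the trend removed, where it was not called (adjusted p = 0.128). BACH1, the haem-sensitive repressor, had 6.42, 6.53 and 6.84 FPKM in NC and 4.71, 5.39 and 6.15 in siPSCA. Its siPSCA libraries were below those of NC and spread more widely, it did not pass the test (log2 fold change -0.25, limma adjusted p = 0.0580), and the sign turned to 0.09 with the trend removed. It was called lower with the replicate block (adjusted p = 0.0464 in limma), with median-ratio scaling, with limma-voom and without siPSCA 3, and over all alternatives the adjusted p ranged from 0.0277 to 0.469.

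**Figure D2:**
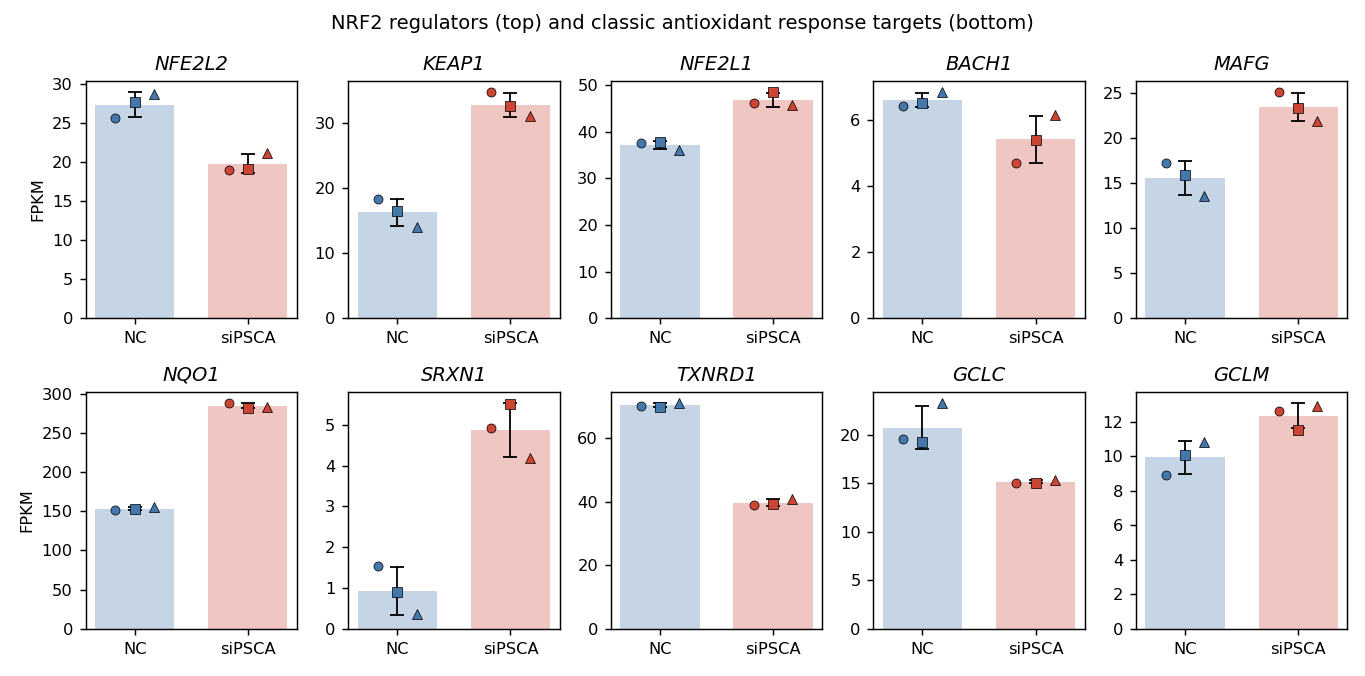
FPKM of the 5 regulators (top) and of 5 classic targets (bottom). Bars are means of 3 libraries, error bars the SD, and symbols the single libraries (circle, square and triangle for replicates 1, 2 and 3). KEAP1 and NQO1 are higher and NFE2L2, TXNRD1 and GCLC lower in every siPSCA library.

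The ligase that starts glutathione synthesis changed in its subunits in opposite directions. GCLC, the catalytic subunit, had 19.6, 19.3 and 23.3 FPKM in NC and 15.1, 15.1 and 15.4 in siPSCA. GCLM, the modifier subunit, had 8.95, 10.1 and 10.8 FPKM in NC and 12.6, 11.5 and 12.9 in siPSCA. Neither gene had overlapping groups, though for GCLM NC 3 and siPSCA 2 were close. GCLC fell, with a log2 fold change of -0.42 ± 0.08 (limma adjusted p = 0.00665) and of -0.20 with the trend removed. GCLM rose, with a log2 fold change of 0.29 ± 0.08 (limma adjusted p = 0.0271) and of 0.59 with the trend removed. The call of GCLM was lost without NC 1, NC 2, siPSCA 1 or siPSCA 3 (log2 fold change 0.22 to 0.30). Glutathione synthetase (GSS), which completes the tripeptide, and glutathione reductase (GSR), which restores its reduced form with NADPH, rose by 0.32 and 0.47 on the log2 scale, and by 0.12 and 0.42 with the trend removed, all past the threshold in limma.

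Of the 9 glutathione transferases, which join glutathione to electrophiles, 7 were tested, 4 rose (26.6% of all tested genes did) and 0 fell (24.2% of all did). GSTP1, the cytosolic pi-class enzyme, had 165, 176 and 162 FPKM in NC and 319, 309.8 and 299 in siPSCA. It was the member with the second highest mean level, its groups lay far apart, and its log2 fold change was 0.88 ± 0.05 (limma adjusted p = 0.000305), or 0.35 with the trend removed. GSTK1 and the microsomal MGST2 and MGST3 had log2 fold changes of 0.38, 0.37 and 0.38, or 0.28, 0.37 and 0.52 with the trend removed, and the calls of MGST2 and MGST3 were lost without siPSCA 1, that of MGST3 also without siPSCA 2. GSTM4 (0.06), GSTO1 (0.09) and MGST1 (0.11) did not pass, and MGST1 passed with the trend removed (0.45). GSTM2 stayed between 0.363 and 0.627 FPKM, and GSTM3 had 1 read in siPSCA 1 and 0 in the other libraries, so neither was tested. GSTM4 shares 24.4% of its 31-base words with other genes, the most with GSTM5, which was listed with 0 reads in every library. How reads on shared words were counted is not stated, so the level of GSTM4 is uncertain.

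Of the 5 glutathione peroxidases 3 were tested, and 1 of these rose, a share near the 26.6% of all tested genes. GPX1, the selenoenzyme of cytosol and mitochondria, had 147, 146 and 111 FPKM in NC and 223, 213 and 204 in siPSCA. No siPSCA library reached down to NC, where NC 3 was the lowest, and the log2 fold change was 0.67 ± 0.12 (limma adjusted p = 0.00529). With the trend removed it was 0.12 and not called (adjusted p = 0.0673), and 22.3% of the 31-base words of GPX1 also occur elsewhere, mostly in its pseudogene GPX1P1. GPX4, which reduces lipid hydroperoxides, was the opposite case. Its levels overlapped completely, from 89.9 to 97.6 FPKM in NC and from 89.7 to 96.3 in siPSCA (log2 fold change 0.00, 95% interval -0.13 to 0.13), but at a GC content of 63.4% it came out lower once the trend was removed (-0.61, limma adjusted p = 0.0107). GPX8 of the endoplasmic reticulum did not pass in either fit (-0.14 and 0.14). GPX2, the gastrointestinal form, and the secreted GPX3 had between 0.220 and 0.552 FPKM and were not tested.

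The thioredoxin system held the largest fall among the 46 genes and, in SRXN1, one of the largest rises. TXNRD1, the cytosolic thioredoxin reductase, had 70.3, 69.9 and 71.1 FPKM in NC and 39.0, 39.4 and 40.9 in siPSCA. The libraries of each group were nearly the same as each other and the groups lay far apart, with a log2 fold change of -0.81 ± 0.04 (limma adjusted p = 0.000250) and of -0.67 with the trend removed. TXNRD2, the mitochondrial reductase, had 1.79, 1.48 and 1.33 FPKM in NC and 3.56, 2.77 and 2.86 in siPSCA. It rose from a low level, with a log2 fold change of 0.68 ± 0.11 (limma adjusted p = 0.00456), or 0.33 with the trend removed.

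SRXN1, the sulfiredoxin that restores over-oxidised peroxiredoxins, had 1.54, 0.894 and 0.366 FPKM in NC and 4.93, 5.51 and 4.19 in siPSCA. All siPSCA libraries were above NC, among which NC 3 was the lowest, and the log2 fold change was 1.64 ± 0.23 (limma adjusted p = 0.00271), 1.44 with the trend removed and 1.41 without NC 3. These values rest on 17 to 70 reads per library in NC and 206 to 264 in siPSCA. Of the exon bases of SRXN1, 84.9% lie in AL121758.1 on the same strand, which was listed at 0.0207 to 0.109 FPKM. Among protein-coding genes of this table, 77.8% of those with at least 95% of their exon bases in a same-strand gene had no read. Of those without overlap it was 18.4%, so levels of such genes are uncertain. AL121758.1, at 96.7%, is in that class. SRXN1 overlaps less than that, and how far its own level was affected was not tested. Thioredoxin itself (TXN) did not pass (-0.11, limma adjusted p = 0.364) and was higher with the trend removed (0.27). The mitochondrial TXN2 rose (0.49) but was called neither with the trend removed (0.18) nor without siPSCA 1.

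Peroxiredoxins, which reduce peroxides and mostly draw electrons from thioredoxin, were among the most abundant members per length. PRDX1, the cytosolic enzyme with the highest mean FPKM of all 46, had 256 to 285 FPKM in NC and 369.5 to 394 in siPSCA. PRDX1 (0.49) and the mitochondrial PRDX3 (0.30) rose and were also higher with the trend removed, at 0.48 and 0.51. PRDX5 rose (0.32) and was not called with the trend removed (-0.06), without siPSCA 1 or without siPSCA 2. PRDX2 (0.07), PRDX4 of the endoplasmic reticulum (-0.15) and PRDX6 (0.13) did not pass. With the trend removed PRDX2 and PRDX4 were lower (-0.28 and -0.17) and PRDX6 higher (0.17). MMACHC on the opposite strand holds 24.9% of the exon bases of PRDX1.

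Superoxide dismutases turn superoxide into hydrogen peroxide, which catalase removes. The copper-zinc enzyme SOD1 (0.35) and catalase (CAT, 0.25) rose in both fits, while the mitochondrial SOD2 (0.10) passed with the trend removed (0.37) and not otherwise. The calls of SOD1 and CAT were lost without NC 1, without NC 2, without siPSCA 1 or without siPSCA 2, and that of CAT also without siPSCA 3. The second SOD2 row had at most 0.0449 FPKM and was not tested.

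Of the 8 enzymes of NADPH supply and the pentose phosphate pathway, 6 rose (26.6% of all tested genes did) and 0 fell (24.2% of all did). Of 9 further tested genes of NADPH supply, outside the 53 names, 3 were higher and 4 lower, with a median log2 fold change of -0.22. TKT, the transketolase of the non-oxidative branch, had 48.2, 50.3 and 47.2 FPKM in NC and 70.1, 70.8 and 69.8 in siPSCA. Its groups were narrow and well apart, with a log2 fold change of 0.52 ± 0.04 (limma adjusted p = 0.000770), or 0.27 with the trend removed. PGLS, the lactonase of the oxidative branch, had 4.52, 4.62 and 3.77 FPKM in NC and 7.68, 6.30 and 7.21 in siPSCA. Its log2 fold change was 0.61 ± 0.10 without overlap (limma adjusted p = 0.00401), but -0.03 with the trend removed (adjusted p = 0.865), at a GC content of 63.4%. Malic enzyme ME1, a cytosolic source of NADPH, rose by 0.38 on the log2 scale, and by 0.66 with the trend removed. The isomerase RPIA rose in both fits (0.38 and 0.37), a call that was lost without NC 1, NC 2, siPSCA 1 or siPSCA 2. Phosphogluconate dehydrogenase (PGD, 0.28) and transaldolase (TALDO1, 0.36) rose and were not called with the trend removed (0.07 and 0.09), and PGD was also not called when any 1 library other than NC 3 was left out. The epimerase RPE (-0.21, and -0.05 with the trend removed) and the isocitrate dehydrogenase IDH1 (0.18) did not pass. RPE was called lower with the replicate block and without NC 1, and IDH1 was called higher without NC 3 and with the trend removed (0.35). KANSL1L on the opposite strand holds 23.8% of the exon bases of RPE. It was listed at 3.88 to 3.99 FPKM in NC and 2.56 to 3.15 in siPSCA, and its part in the level of RPE was not tested.

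Of the 8 enzymes of quinone and carbonyl reduction and other targets 5 were tested. All 5 rose with log2 fold changes over 0.5, as 14.1% of all tested genes did, and were higher in the fit with the trend removed as well. AKR1C3 was among these 5 only through its siPSCA libraries, as its NC mean lay under the minimum. NQO1, the quinone reductase used as a standard readout of NRF2, had 152, 152 and 156 FPKM in NC and 288, 282 and 283 in siPSCA. The groups were tight and far apart, the log2 fold change was 0.89 ± 0.04 (limma adjusted p = 0.000144), and removal of the trend left it at 0.90. The opposite-strand AC092115.2 covers 17.7% of the exon bases of NQO1 and was listed at 0 in every library. All exon bases of AC092115.2 lie in an opposite-strand gene. Of 18 protein-coding genes with at least 95% of their exon bases so placed, and none in a same-strand gene, 17 had no read. Its 0 therefore does not show that the overlap left the level of NQO1 unchanged, which was not tested.

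OSGIN1, an oxidative stress induced growth inhibitor, had 4.78, 4.71 and 1.46 FPKM in NC and 13.7, 13.5 and 12.9 in siPSCA. Its log2 fold change was 1.73 ± 0.33 (limma adjusted p = 0.00725), which was 1.32 without NC 3 and 1.19 with the trend removed, where SRXN1 had the larger value in both cases. AKR1B1, aldose reductase, had 6.05, 6.15 and 4.46 FPKM in NC and 10.1, 8.86 and 9.24 in siPSCA. AKR1C3, a further aldo-keto reductase, had 0.565, 0.684 and 0.730 FPKM in NC and 1.28, 1.79 and 1.53 in siPSCA. Neither had overlapping groups, and the log2 fold changes were 0.68 ± 0.12 for AKR1B1 (limma adjusted p = 0.00546) and 0.61 ± 0.12 for AKR1C3 (limma adjusted p = 0.00766). With the trend removed they were 0.44 and 0.77. ABHD4, a lipase, rose by 0.58 on the log2 scale, or by 0.41 with the trend removed.

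The other aldo-keto reductases lay below the minimum. AKR1B10 had 4, 5 and 3 reads in NC and 31, 10 and 22 in siPSCA, without overlap, but did not pass when every gene with a read was fitted (log2 fold change 0.55, limma adjusted p = 0.0796). AKR1C1 and AKR1C2, which share 35.7% and 48.3% of their 31-base words with other genes, mostly each other, had 6 to 44 reads per library and overlapping groups.

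**Figure D3:**
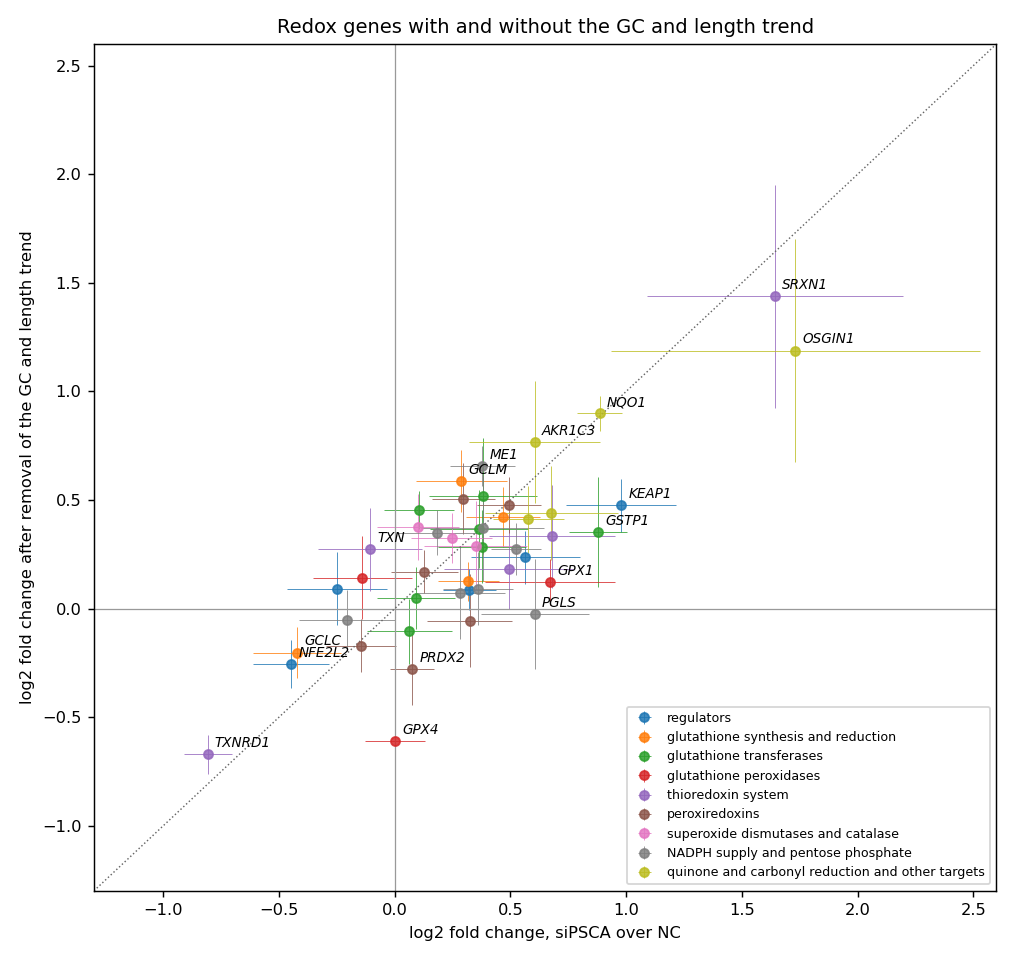
Log2 fold change of siPSCA over NC for the 46 tested genes, as measured (horizontal) and with the GC and length trend removed (vertical), with 95% intervals from limma and colours for roles. On the dotted line both are equal. NQO1 sits on it at 0.89 and 0.90, KEAP1 and GSTP1 lie below it, GCLM and ME1 above it, and GPX4 moves from 0.00 to -0.61.

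Removing the trend moved calls in both directions. NFE2L1, GPX1, TXN2, PRDX5, PGD, PGLS and TALDO1 were called higher with the trend in place and not with it removed. GPX1 and PGD were called higher again with the trend removed and NC 3 left out. MGST1, TXN, PRDX6, SOD2 and IDH1 were called higher, and GPX4, PRDX2 and PRDX4 lower, with it removed and not with it in place. MGST1, PRDX6 and IDH1 were also called higher with the trend in place and NC 3 left out. BACH1, GSTM4, GSTO1, GPX8 and RPE were called in neither of these fits. The calls of 19 genes, 16 higher and 3 lower, were made with the same sign in the reported fit and in all alternatives run. Those higher were KEAP1, MAFG, GSR, GSTP1, GSTK1, TXNRD2, SRXN1, PRDX1, PRDX3, TKT, ME1, NQO1, AKR1B1, AKR1C3, OSGIN1 and ABHD4, and those lower were NFE2L2, GCLC and TXNRD1. SRXN1 and AKR1C3 passed the minimum FPKM only through their siPSCA libraries. The same count was not made over all tested genes, so the 19 have no share to stand beside. Single fits called 16.3% to 53.8% of all the genes they tested. Whether the GC trend arose in the cells or in the libraries was not tested.

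**Figure D4:**
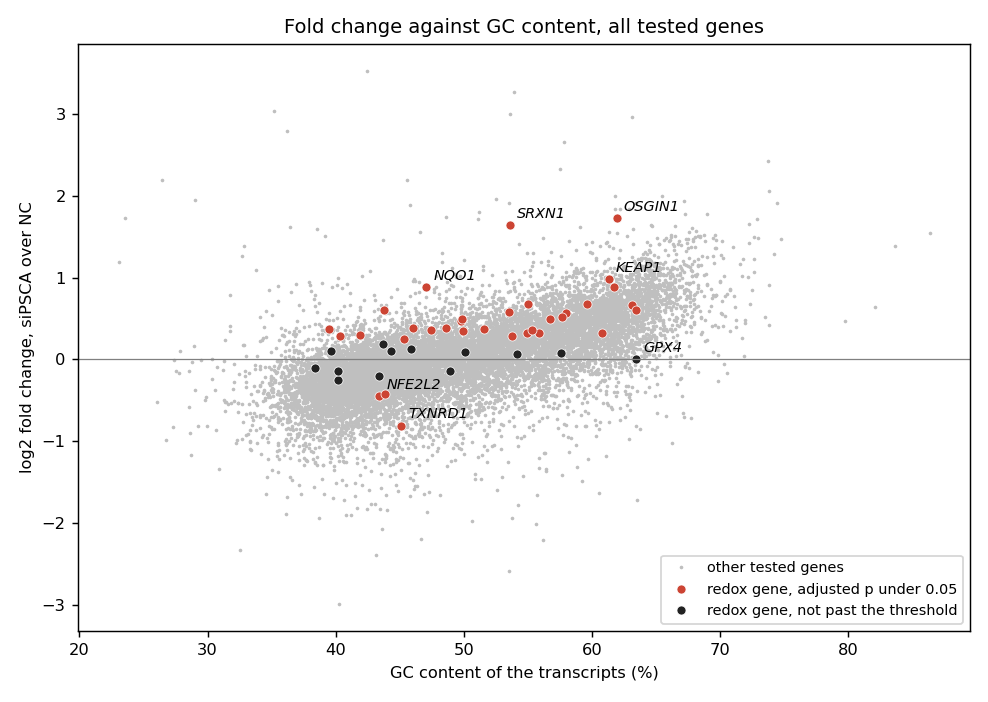
Log2 fold change of siPSCA over NC against the GC content of each gene's transcripts, for all tested genes (grey) and the 46 redox genes (red where past an adjusted p of 0.05, black where not). The grey cloud rises with GC content. NQO1 at 47.1% GC and SRXN1 at 53.6% lie above its trend, TXNRD1 at 45.1% below its trend, and KEAP1 at 61.3% near its upper part. Other tested genes lie farther out at similar GC content, such as GLRX (45.2%, log2 fold change -1.20) and FTH1 (53.9%, 3.28).

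Ratios of partner genes within each library do not depend on the scaling of that library. The 4 pairs were chosen after their values were seen and are a description. KEAP1 over NFE2L2, in FPKM, was 0.713, 0.594 and 0.489 in NC and 1.83, 1.71 and 1.47 in siPSCA. GCLM over GCLC was 0.456, 0.523 and 0.466 in NC and 0.838, 0.765 and 0.842 in siPSCA. So KEAP1 was the lower of its pair in each NC library and the higher in each siPSCA library, while GCLM stayed below GCLC throughout. TXNRD2 over TXNRD1 was 0.0187 to 0.0255 in NC and 0.0700 to 0.0913 in siPSCA. TXN2 over TXN was 0.0848 to 0.136 in NC and 0.170 to 0.179 in siPSCA. The log2 change of the KEAP1, GCLM and TXNRD2 ratios was 1.49, 0.76 and 1.83, and 0.73, 0.79 and 1.00 with the trend removed. That of the TXN2 ratio went from 0.62 to -0.09. The first values use FPKM as it is, and those with the trend removed use log2(FPKM + 1), so the scale differs as well. This matters most for the low TXNRD2. On the log2(FPKM + 1) scale TXNRD2 and TXNRD1 had log2 fold changes of 0.68 and -0.81 with the trend in place.

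Beyond the 53 names, 89 further genes of these pathways were in the table and 67 were tested. Of these 29 rose (26.6% of all tested genes did) and 9 fell (24.2% of all did), with a median log2 fold change of 0.20. With the trend removed 32 were higher (21.5% of all) and 11 lower (18.3% of all). FTH1, the ferritin heavy chain, had 105, 84.3 and 22.8 FPKM in NC and 624, 599 and 524 in siPSCA. It had the largest rise of the 67, a log2 fold change of 3.28 ± 0.54 (limma adjusted p = 0.00457), which was 2.61 without NC 3 and 3.08 with the trend removed. BEST1 on the opposite strand covers 62.4% of the exon bases of FTH1, and FTH1 has pseudogenes of near-identical sequence, so its level is uncertain. OPLAH, the oxoprolinase of glutathione turnover, rose by 1.13 on the log2 scale, 0.83 without NC 3 and 0.40 with the trend removed.

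With the trend in place the largest falls were those of GLRX, MTHFD2 and NFE2L3. GLRX, the cytosolic glutaredoxin, had 16.7, 15.8 and 18.7 FPKM in NC and 7.10, 6.83 and 6.56 in siPSCA. Its groups did not overlap and the log2 fold change was -1.20 ± 0.07 (limma adjusted p = 0.000345), or -1.08 with the trend removed. MTHFD2, a mitochondrial folate enzyme, and NFE2L3, a relative of NFE2L2, had log2 fold changes of -0.46 and -0.42, and of -0.27 and -0.23 with the trend removed. In that fit CHAC1 (-0.61), IDH2 (-0.58) and H6PD (-0.53) were called and fell further than MTHFD2 and NFE2L3, but less than GLRX. So did SHPK (-0.51), HMOX1 (-0.45), MAFF (-0.43), GGT1 (-0.29) and CCS (-0.28). All of these but HMOX1 were named after their values were seen. CHAC1 overlapped and did not pass with the trend in place (-0.03, limma adjusted p = 0.925), where IDH2 was at -0.23 (limma adjusted p = 0.0159). H6PD was called lower there too (-0.33, limma adjusted p = 0.0243), while SHPK, MAFF, GGT1 and CCS were not called. HMOX1, haem oxygenase and a classic target of NRF2 and BACH1, had 24.7, 25.7 and 19.7 FPKM in NC and 26.2, 23.1 and 21.8 in siPSCA. It overlapped and did not pass (log2 fold change 0.02, limma adjusted p = 0.873), and was lower with the trend removed (-0.45). SLC7A11, the cystine transporter, fell slightly (-0.17, limma adjusted p = 0.0342) and was higher with the trend removed (0.23). TXNIP, which binds thioredoxin, had 1 read in NC 3 and 0 in the other libraries.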

How the data were processed

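RNA of HCT116SCs was sequenced in 6 libraries made with the NEBNext Ultra RNA kit, whose strand handling was not stated. The authors deposited gene FPKM values for 58735 genes, whose positions match GENCODE release 29 on GRCh38. The aligner, the counting program and its versions are not given in the sources used here. Multiplied by gene length, 100% of the values were whole multiples of 1 read (relative tolerance 1e-05), which gave the read numbers. Intervals and SEs come from the spread between libraries.

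Values were analysed with R 4.3.3, limma 3.58.1, Python 3.11.15, pandas 2.3.3, numpy 2.4.6, scipy 1.17.1 and matplotlib 3.10.9. A linear model with moderated variances and a mean trend was fitted in limma to log2(FPKM + 1) of genes whose mean FPKM reached 1, a scale that understates the change of low genes. P-values are 2-sided and adjusted by Benjamini and Hochberg over 13796 genes. GC and length trends were removed within each library with splines of 6 degrees of freedom. Exon overlap and shared words of 31 bases were computed from GENCODE release 29. Promoters came from RefSeq GRCh38.p14. On simulated data for this comparison (13796 genes), 177 of 200 genes with a log2 change of 1 and 106 of 200 with 0.5 were recovered, with 4 and 7 false calls, and 0 with none added. The simulated libraries were independent, with the same dispersion for all genes and no GC trend. Their false calls therefore do not measure the error that such a trend can bring.

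The members, the further pathway genes and the markers were chosen with earlier results of these data known. Values in every library are given for the 5 regulators, NQO1, GCLC, GCLM, TXNRD1 and SRXN1, and, in each role, for up to 4 members past adjusted p 0.05 and an absolute log2 fold change of 0.5. Of the further pathway genes, the 3 largest rises and 3 largest falls were to be named, with HMOX1, SLC7A11 and TXNIP, and 1 gene that this rule names is not reported here. Values outside this rule were chosen after they were seen. Alternatives were a pseudocount of 0.1, no minimum FPKM, TPM, median-ratio scaling, limma-voom on the recovered reads, a replicate block, removal of the GC and length trend with and without that block, and leaving out each library. Removal of the trend without NC 3 was added after the data were seen. Groups of 3 were not tested for outlying libraries.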

Additional observations from a re-analysis of the deposited data

How the results depend on the processing

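The members called, 33 as reported, numbered 24 to 36 over all alternatives, 24 without siPSCA 1 and 36 without NC 3, and their median log2 fold change stayed above 0. Those called lower, 3 as reported, were 5 with a replicate block, 6 with the GC and length trend removed, and 5 with both or with the trend removed and NC 3 left out. Those past an absolute log2 fold change of 0.5, 14 as reported, were 8 with the trend removed and NC 3 left out. Over all tested genes that count went from 3283 of 13796 to 1315 of 13792. The median of 0.34 was 0.28 with TPM and 0.28 with the trend removed, with or without the block. The genes called among all tested, 7001 as reported, were 4567 with block and trend removal (2436 higher, 2131 lower) and 4627 to 7425 when 1 library was left out, with 2299 to 4014 higher and 2328 to 3411 lower, where the lowest counts were without siPSCA 1. Further pathway genes called lower, 9 as reported, were 5 without a minimum FPKM and 3 to 11 when 1 library was left out, with 3 without siPSCA 1 and 5 without siPSCA 2. Whether the same number pairs the samples cannot be settled with so few libraries per group. The correlation of deviations was 0.10, 0.01 and 0.13 for replicates 1, 2 and 3, and -0.13 to 0.04 between different numbers. Not every library correlated best with its own number. The replicate block called 33 members, 28 higher, and lost RPIA and SOD1. The cause of these shifts was not tested.

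Signs turned for 10 members and 1 ratio. With the trend removed, with or without the block, the log2 fold changes were 0.092 for BACH1, -0.11 for GSTM4, -0.61 for GPX4, 0.14 for GPX8, 0.27 for TXN, -0.28 for PRDX2, -0.056 for PRDX5, -0.025 for PGLS and -0.090 for TXN2 over TXN. With the trend removed and NC 3 left out they were 0.078 for BACH1, -0.14 for GSTM4, -0.0059 for GSTO1, -0.47 for GPX4, 0.16 for GPX8, 0.33 for TXN, -0.20 for PRDX2, 0.0011 for RPE and -0.21 for TXN2 over TXN. GPX4, at 0.00 as reported, was -0.045 with TPM, -0.015 with median-ratio scaling and -0.027 to 0.034 when 1 library was left out. A pseudocount of 0.1, median-ratio scaling and limma-voom lost 0 of the 33 member calls, TPM lost 5 (CAT, GCLM, PGD, RPIA, SOD1), no minimum FPKM lost 6 (these and MGST3), and block with trend removal lost 10, among them GSS. Depth limits SRXN1 and the members below the minimum, whose NC libraries held few reads.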
